A study of Homo sapiens with 8 samples.

Results

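The clustered HOX genes are 39 protein-coding genes of GENCODE release 44 on GRCh37, named HOXA, HOXB, HOXC or HOXD plus a number. A peak belonged to them when its summit, the base of highest signal, lay inside one of the gene bodies or within 5 kb of the start site of one of their transcripts. By this rule HOX peaks numbered 30 of 30240 and 28 of 33616 with PBS (replicates 1 and 2) and 24 of 29269 and 26 of 33324 with SCF. Merged wherever peaks of different lists shared at least 1 bp, they formed 40 of 43654 regions. Below, a pair of values after PBS or SCF is always replicate 1 and then replicate 2.

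The libraries were ATAC-seq libraries of HUDEP-2, an immortalised erythroid progenitor line from human umbilical cord blood that is grown with SCF, EPO, dexamethasone and doxycycline. All cells used here carried the control guide sgControl. They were starved of growth factors for 5 h and then given PBS or 50 ng/ml SCF, the ligand of the Kit receptor, for 1 h, and 50000 cells entered each library. There were 2 libraries per treatment, which the study's methods call biological duplicates. The labels do not say what separated them, so p-values measure only the spread between these libraries. The 4 samples with the guide against EGR1 were not analysed here.

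HOX genes encode homeodomain transcription factors that give cells their position along the body axis. In each of the 4 clusters the genes lie in the order of their paralogue numbers. Low numbers act towards the head and open early in development, and high numbers act towards the tail and open late. Polycomb complexes keep silent stretches of a cluster compact, and Trithorax-type methyltransferases such as KMT2A keep other stretches active. In blood, HOXA9 and its partner MEIS1 are known from progenitors and leukaemia, and HOXB4 from stem cell expansion. ATAC-seq reads where the transposase Tn5 can reach the DNA. In a bulk library, fewer cells with an open site and less cutting per cell cannot be told apart.

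The sequences under the leading summits show what was open. The highest-ranking region called in all 4 libraries is given for HOXA, HOXB and HOXD as the 101 bases centred on its summit, read 5′ to 3′ on the forward strand of GRCh37, with CpG dinucleotides in capitals. The region 1966 bp upstream of the nearest HOXB2 start is added as the region with the lowest CpG ratio of the 40. The summit of a region is that of the library where it ranked highest. Over the 4 libraries the summits spanned 333 bp at HOXA4, 48 bp in HOXB6, 46 bp in HOXD3 and 382 bp upstream of HOXB2. The windows at HOXA4 and upstream of HOXB2 therefore do not hold the summits of all 4 libraries.

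HOXA4 start, chr7:27170517-27170617: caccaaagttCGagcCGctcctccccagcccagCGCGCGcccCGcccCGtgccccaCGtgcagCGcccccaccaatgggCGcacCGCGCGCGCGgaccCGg
HOXB6 intron, chr17:46679921-46680021: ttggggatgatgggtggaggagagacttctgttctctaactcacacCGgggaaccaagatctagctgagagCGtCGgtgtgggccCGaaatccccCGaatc
HOXD3 intron, chr2:177005426-177005526: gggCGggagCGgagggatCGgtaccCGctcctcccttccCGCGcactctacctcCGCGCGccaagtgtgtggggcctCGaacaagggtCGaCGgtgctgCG
HOXB2 upstream, chr17:46624387-46624487: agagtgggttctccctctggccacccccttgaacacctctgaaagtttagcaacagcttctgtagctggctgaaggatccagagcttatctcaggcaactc

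The window at HOXA4 held 16 CpG dinucleotides, that in HOXD3 held 13, that in HOXB6 held 5 and that upstream of HOXB2 held 0. Within 100 bp of each summit, the CpG ratio (observed over expected from base content) had a median of 0.758 in the 40 HOX regions against 0.347 in all regions, and GC content had a median of 62.2% against 54.2%. The gap was smaller among regions called in all 4 libraries, where the CpG ratio was 0.809 for the 19 HOX regions and 0.644 for all, and the GC content was 62.2% and 61.2%.

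Depth differed among the libraries. Relative to PBS replicate 1, the lowest local background of the caller, which grows with depth, was 1.43 in the second PBS library, and with SCF it was 0.902 and 0.846. How many reads stand behind each list is not known here. The pileup at a HOX summit, given below as fragments, ranged from 7 to 50. Whether the caller counted fragments or read ends is not known here. A pileup of 14 carries an exact 95% Poisson interval of 7.65 to 23.5 and one of 30 carries 20.2 to 42.8, and these cover counting error only. They take the counted items as independent. Of 13 erythroid marker genes, 10 had a start-site summit in all 4 libraries, among them GATA1, KLF1 and KIT, ALAS2 had one in 1 library, and the fetal globin genes HBG1 and HBG2 had none. Of 11 markers of other cells, 2 did, and 7, including CD3E, MPO and ALB, had none in any library. One of the 2 was COL1A1, with a mean rank of 74.6 on the scale explained below.

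Most HOX start sites carried no peak. Only 12 of the 39 genes (30.8%) had a summit within 1 kb of an annotated start in all 4 libraries, against 59.7% of 20163 protein-coding genes, and 21 (53.8%) had one in none, against 32.9%. HOXB was the best covered cluster with 5 of 10 genes in all 4 libraries, followed by HOXA with 3 of 11, and HOXC and HOXD with 2 of 9 each. They included HOXA4, HOXA6, HOXB2, HOXB4, HOXB5, HOXB7, HOXB9, HOXC4, HOXC10, HOXD1 and HOXD9. Another 6 were called in part of the libraries: HOXA10 and HOXD8 in 3, HOXC13 and HOXD11 in 2, and HOXC5 and HOXC9 in 1. The low share held under each way of counting tried after these values were seen. It was 11 genes (28.2%) with a 500 bp window, 9 (23.1%) with the canonical transcript alone and 8 (20.5%) with peaks of −log10 q of at least 5, where the shares of all protein-coding genes were 56.8%, 56% and 57.3%.

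**Figure D1:**
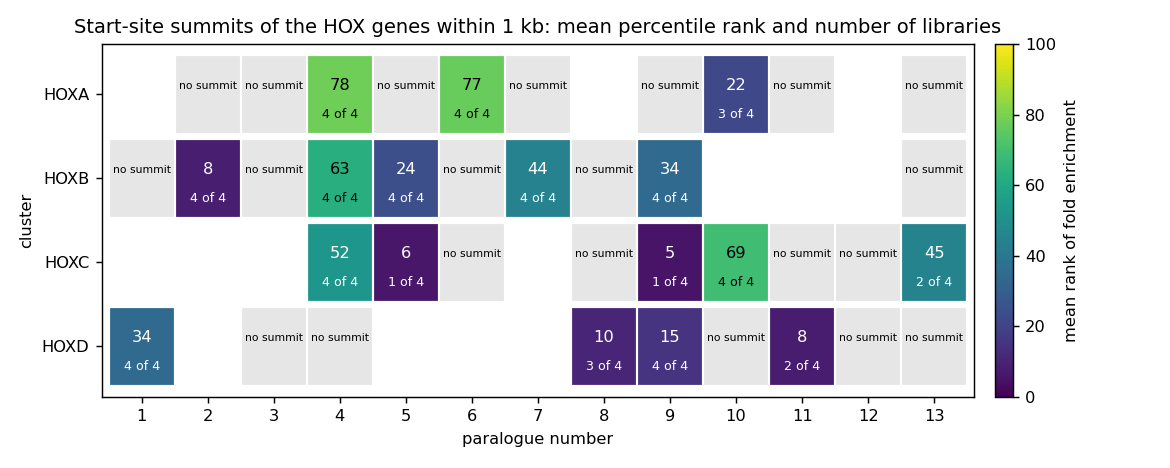
Start-site summits by cluster (rows) and paralogue number (columns). The upper number and the colour give the mean percentile rank of fold enrichment over the libraries with a summit within 1 kb, the lower number gives those libraries, grey cells are genes with no such summit, and blank cells are positions with no gene or not reported. The filled cells of high rank lie at HOXA4, HOXA6, HOXB4 and HOXC10, and 21 genes are grey.

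The paralogue groups differed little at the head end and in the middle. Among paralogues 1 to 3, 3 of 8 genes had a start-site summit in all 4 libraries, among paralogues 4 to 8, 6 of 15, and among paralogues 9 to 13, 3 of 16. No paralogue group had a start-site summit in all 4 libraries in every cluster that holds it. Paralogue 4 came nearest, with HOXA4, HOXB4 and HOXC4 called in all 4 libraries and HOXD4 in none. Of the paralogue 12 and 13 genes, which pattern the tail, limb ends and skin appendages, only HOXC13 had a start-site summit, and only in the PBS libraries.

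A peak list ranks its peaks by fold enrichment, the summit pileup over the local background. In the following, each value is the percentile rank of that enrichment among all peaks of the library, where 100 is the highest. In HOXA, on chromosome 7, 4 of 9 regions were called in all 4 libraries, among them those at HOXA4, at HOXA6 and between HOXA7 and HOXA9. Peaks covered 2.15% to 3.76% of the cluster. HOXA genes such as HOXA9 and HOXA10 are known from blood progenitors.

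The HOXA4 start, chr7:27170085-27170978, had the highest mean rank of the 40 regions. It ranked 78.2 and 76.1 with PBS and 81.3 and 76.1 with SCF, from fold enrichments of 11.2 and 10.4 and of 11.9 and 10.3. The pileups were 34 and 43 fragments with PBS and 35 and 28 with SCF. The groups overlapped. This region lies in an intron of the long HOXA3 transcripts and 168 bp upstream of the nearest HOXA4 start, in a stretch also crossed by the antisense genes HOXA-AS2 and HOXA-AS3, and ATAC-seq does not tell the strands apart.

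The HOXA6 start came next, at chr7:27190134-27190887, with a summit 268 bp upstream of the gene. It ranked 67.0 and 74.2 with PBS and 90.1 and 75.8 with SCF, and the pileups were 30 and 46 fragments with PBS and 45 and 31 with SCF. Both SCF ranks were above both PBS ranks, by 1.59 points at the closest, and SCF replicate 1 stood above the others. Ranked by pileup within each library, the region stood at 58.1 and 65.8 with PBS and at 70.4 and 63.6 with SCF, so the groups overlapped on that scale. It was the only HOX region to reach a rank of 90 in any library.

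The region between HOXA7 and HOXA9, 3100 bp upstream of HOXA7, had 57.4 and 57.9 with PBS and 50.0 and 31.3 with SCF. Both SCF values were the lower ones there, and SCF replicate 2 was the lowest. Ranked by pileup within each library, the region stood at 61.0 and 61.9 with PBS and at 50.8 and 49.6 with SCF. The groups were 10.2 points apart on that scale.

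HOXA10, which acts in the uterus and in blood, had weak peaks near its several starts. These ranked 20.6 and 9.5 with PBS and 35.6 in the second SCF library, and no peak was called in the first. The peak of the second PBS library lay in another region than the others. HOXA2, HOXA5 and HOXA11 had no summit in the body or within 5 kb in any library. HOXA9 had no start-site summit in any library, although peaks in its long body or within 5 kb were called in all 4.

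**Figure D2:**
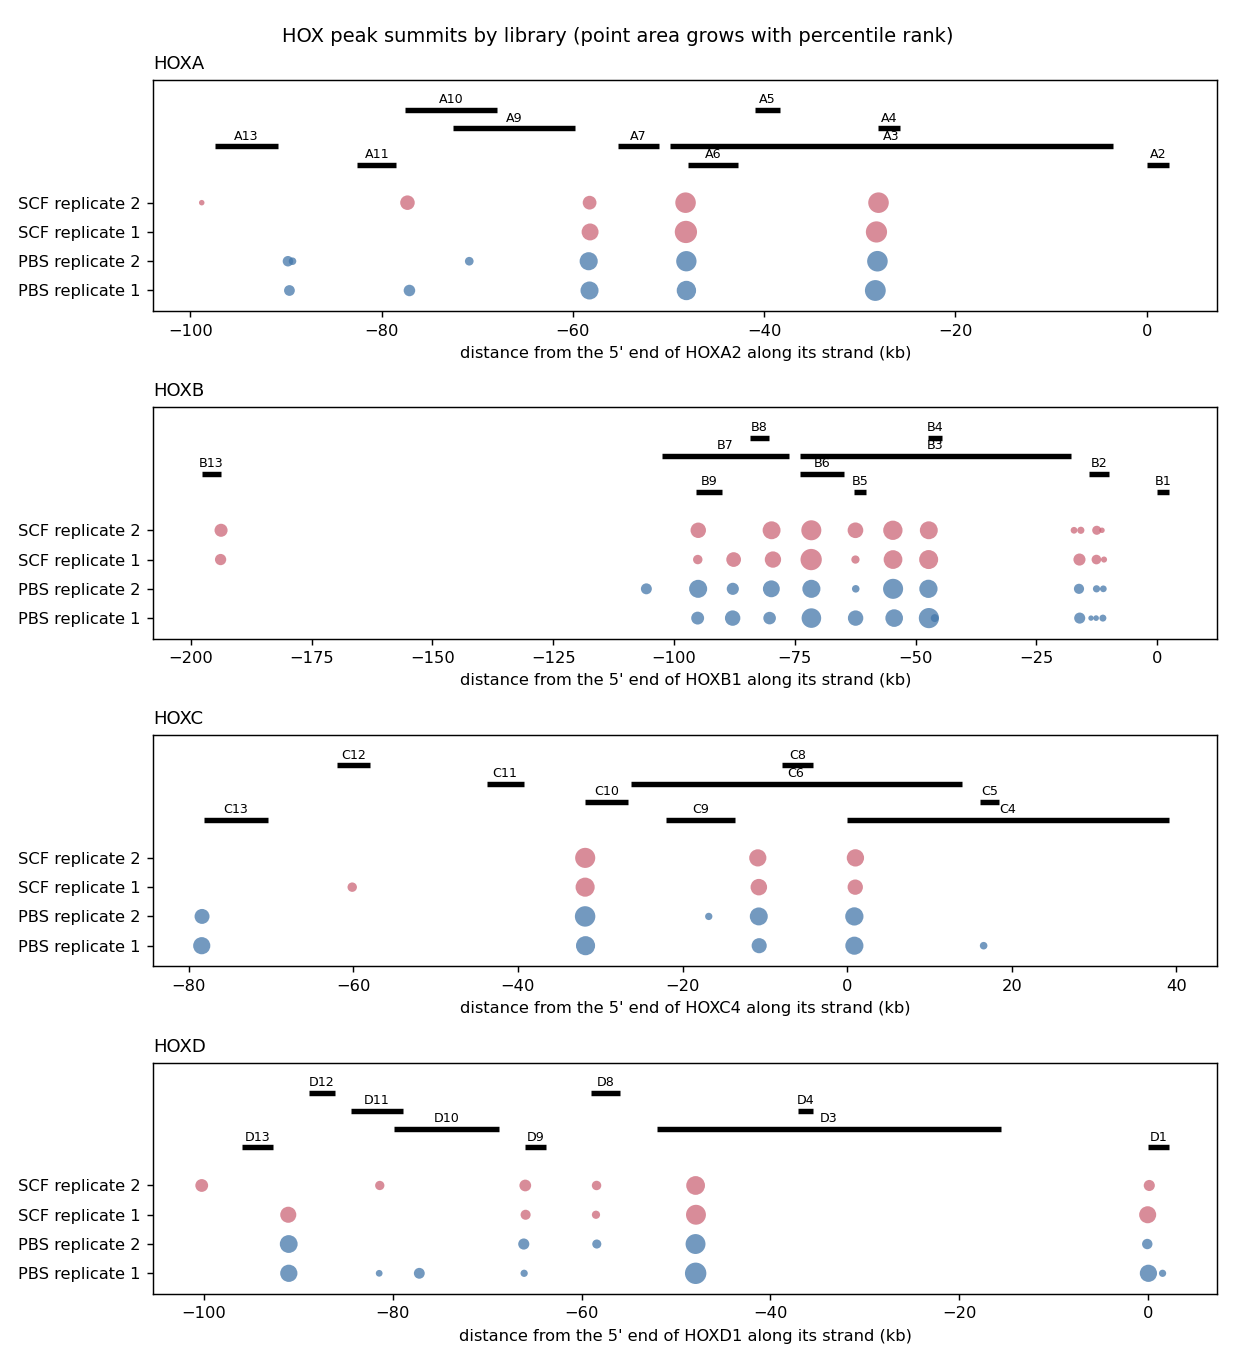
HOX peak summits along the 4 clusters, for the regions reported by place. The horizontal axis is the distance in kb from the 5′ end of the gene named on the axis, along its strand, rows are libraries (PBS blue, SCF red), point area grows with the percentile rank, and black bars are gene bodies as annotated. In HOXB, 9 regions recur in each library, and the HOXA2, HOXB1 and HOXD4 bodies hold none.

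HOXB held the most HOX summits, 12 and 11 with PBS and 11 and 11 with SCF, and 9 of its 15 regions were called in all 4. From HOXB1 to HOXB9, on chr17:46605888-46710934, peaks covered 5.37% to 6.31% of the DNA. The covered share was 1.3% to 1.99% in HOXC and 2.18% to 2.57% in HOXD. HOXB genes are known to be active in erythroid progenitors.

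The leading HOXB region, chr17:46679670-46680330, lay in introns of HOXB6 and the long HOXB3, 1523 bp downstream of the nearest HOXB6 start and 118 bp from a start of the antisense gene HOXB-AS3. Its rank was 68.5 and 57.7 with PBS and 82.0 and 71.9 with SCF, that is 63.1 ± 7.61 against 76.9 ± 7.18 (SD, n = 2). Both SCF values were above both PBS values, by 3.37 points at the closest. The pileups were 32 and 26 fragments with PBS and 37 and 29 with SCF. Ranked within each library, these pileups stood at 60.1 and 49.4 with PBS and at 64.5 and 61.5 with SCF, so the groups did not overlap on that scale either.

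The HOXB4 start, chr17:46655059-46656320 with the summit in an exon, had ranks of 73.2 and 58.9 with PBS and 64.3 and 56.5 with SCF. The groups overlapped. By pileup rank it stood at 65.8 and 64.0 with PBS and at 61.9 and 56.8 with SCF, so the groups did not overlap on that scale. A region 3030 bp upstream of the nearest HOXB3 start, between HOXB4 and HOXB5, was of similar rank at 54.5 and 72.0 with PBS and 62.3 and 66.6 with SCF.

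The starts of HOXB5, HOXB7 and HOXB9 were lower and less even. HOXB5 had 40.5 and 6.0 with PBS and 8.1 and 42.0 with SCF, so that the replicates of a treatment differed more than the treatments did. HOXB7 had 25.4 and 49.6 with PBS and 46.1 and 56.5 with SCF. HOXB9 had 26.9 and 57.5 with PBS and 12.1 and 40.8 with SCF. For each of the 3 genes the groups overlapped.

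HOXB2, a hindbrain gene, differed from the other members in its surroundings. Over 6.81 kb at chr17:46618930-46625740, 5 regions were called, 3 of them in all 4 libraries. Their summits held 15 to 34 fragments, which ranked them between 32.6 and 61.9 by pileup, but their fold enrichments of 2.69 to 5.11 ranked them only between 0.499 and 23.1. The local background there was 4.05 to 6.87 times the lowest of the library, against 1.00 to 3.35 times at the other 35 HOX regions. Fold enrichment is a ratio to that background. Backgrounds of at least 3 times the lowest were found at 36.5% to 42.8% of all peaks of a library, so such values are common in the genome.

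Within that stretch, the region at an internal HOXB2 start, 340 bp downstream of it and 18 bp from a start of HOXB-AS1, had ranks of 1.1 and 5.0 with PBS and 12.8 and 10.8 with SCF. Its summit held 23 and 31 fragments with PBS and 24 and 23 with SCF. By fold enrichment both SCF values were above both PBS values, whereas by pileup rank the groups overlapped. The region 918 bp downstream of the nearest HOXB2 start had 4.4 and 3.7 with PBS and 2.1 and 0.7 with SCF, and the one 1966 bp upstream of the nearest start had 18.6 and 14.8 with PBS and 23.1 and 4.8 with SCF.

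**Figure D3:**
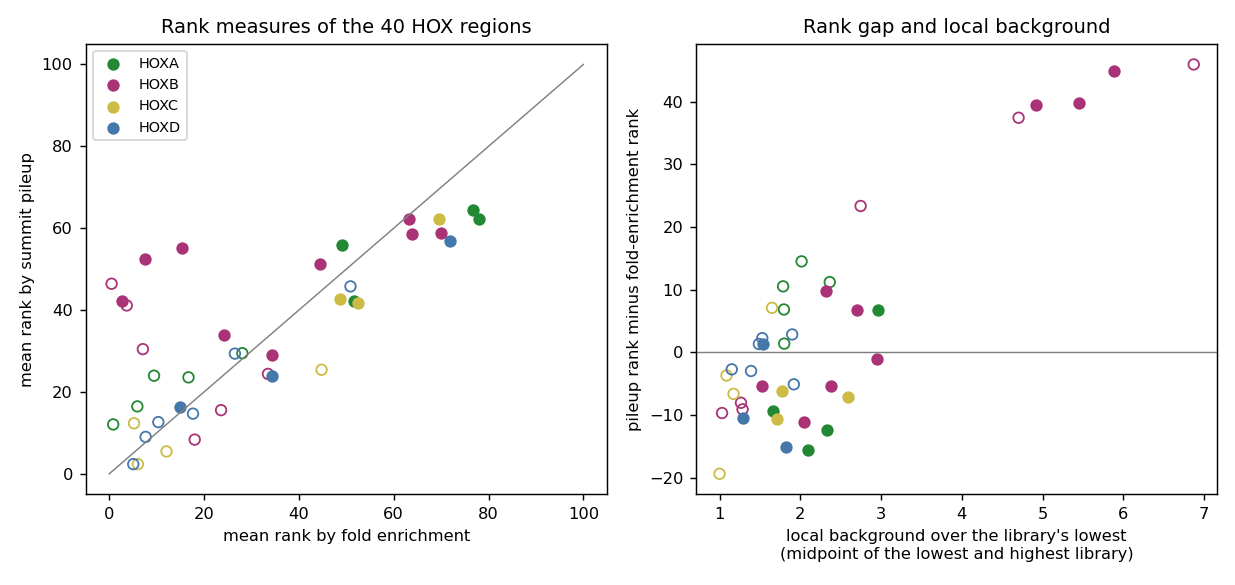
The 40 HOX regions by rank measure. Left, mean percentile rank by fold enrichment (horizontal) against that by summit pileup (vertical), with filled points for regions called in all 4 libraries and the diagonal as a line; right, the gap between both ranks (vertical) against the local background over the lowest of the library (horizontal). The 5 HOXB2 regions stand apart, with local backgrounds of 4.05 to 6.87 times the lowest and pileup ranks above their fold-enrichment ranks.

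HOXB1, the paralogue at the 3′ end of the cluster, had no summit in or within 5 kb of the gene in any library. HOXB13, which lies far from the other HOXB genes and is known from the prostate, had none at its start.

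HOXC, on chr12:54332615-54449814, had 5 and 5 summits with PBS and 4 and 3 with SCF, and 3 of its 7 regions were called in all 4. The HOXC10 start, with the summit in an exon 30 bp downstream of the start, was the leading one, with ranks of 65.0 and 75.3 for PBS and 65.0 and 72.5 for SCF. The groups overlapped. The summits of the 4 libraries fell within 53 bp of each other, and the summit also lies in the antisense gene HOXC-AS3. HOXC10 acts in the lumbar spinal cord and hind limb.

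HOXC4 had a summit 868 bp inside its long transcript, in a body it shares with HOXC6. The rank was 57.9 and 59.0 with PBS and 40.1 and 52.5 with SCF, so both SCF values were below both PBS values, by 5.42 points at the closest. A region 2793 bp upstream of HOXC8 had 38.8 and 56.9 with PBS and 47.3 and 51.7 with SCF. HOXC5 was called at its start in the first PBS library alone at a rank of 6.0 and HOXC9 in the second PBS library alone at 5.2, and HOXC11 had no summit in any library.

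In HOXD, on chr2:176957449-177055635, 3 of 9 regions were called in all 4 libraries. The leading region, chr2:177005118-177005859, was intronic, 3791 bp downstream of the nearest HOXD3 start. It ranked 82.9 and 71.0 with PBS and 71.0 and 62.6 with SCF, and the pileups were 32 and 37 fragments with PBS and 28 and 21 with SCF. The rank groups were separated by 0.033 points. HOXD3 itself had no summit within 1 kb of a start.

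HOXD1 and HOXD9 had start-site summits in all 4 libraries. HOXD1 ranked 51.9 and 15.8 with PBS and 50.7 and 18.7 with SCF, so the replicates labelled 1 were high and those labelled 2 low in both treatments. HOXD9 ranked 5.1 and 18.8 with PBS and 14.4 and 21.5 with SCF. HOXD8 was not called in the first PBS library, ranked 10.9 in the second, and ranked 8.0 and 12.2 with SCF. HOXD11 ranked 3.7 in the first PBS library and 11.6 in the second SCF library and was not called in the others. HOXD13 and HOXD12, which pattern digits, had a shared peak between them, 2161 bp upstream of HOXD12, that ranked 52.1 and 55.9 with PBS and 44.6 in the first SCF library and was not called in the second. HOXD4 had no summit in any library.

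Regions called in all 4 libraries lay closer to starts than the ones called once. Of the 19, 13 were within 1 kb of a HOX start, and their median distance was 340 bp. Of the 13 regions called in 1 library, 4 were within 1 kb and the median distance was 1548 bp. The latter held pileups of 7 to 21 fragments and ranks of 0.499 to 26.5. Calls in a single library made up 32.5% of the HOX regions and 26.5% of all regions, and calls in all 4 made up 47.5% and 51.3%. The distances to starts were not computed over all regions, so they are not shown to be a trait of HOX regions.

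The comparison of SCF with PBS asks whether Kit activation changed accessibility at these genes within 1 h. HOX summits numbered 29 ± 1.41 with PBS and 25 ± 1.41 with SCF (SD, n = 2), a difference of −4 with p = 0.333 in a two-sided exact permutation test. This is the smallest p that 2 libraries against 2 can reach. With equal numbers of peaks taken from each list the counts were 26 and 21 with PBS and 24 and 22 with SCF, a difference of −0.5 (exact permutation p = 1), and with peaks of −log10 q of at least 5 the difference was −2. HOX genes with a start-site summit numbered 16 and 16 with PBS (41% each) and 13 and 15 with SCF (33.3% and 38.5%), also with p = 0.333 in the exact permutation test. The shares of all protein-coding genes were 62.7% and 64.1% with PBS and 62.7% and 63.5% with SCF. With equal numbers of peaks the start-site counts became 13 and 11 with PBS and 13 and 13 with SCF, so the direction of this small difference depends on list length.

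Calls in 1 treatment only were few, among the HOX regions and among all regions. Calls shared by the PBS libraries and absent with SCF were 2 of 40, against 1036 of all 43654 regions (2.37%). Those shared by the SCF libraries and absent with PBS were 1 of 40, against 721 of 43654 (1.65%). The HOX shares are not lower than those of all regions, and a difference was not tested. Without the first SCF library the counts became 4 PBS-only and 4 SCF-only, without the second 2 and 2, without the first PBS library 6 and 1 and without the second 7 and 2, since 1 library then speaks for its treatment. The shares of all regions in these settings were not computed, and the shares above do not apply to them. Of the 2 PBS-only regions over all 4 libraries, the first was the start of HOXC13, a gene of hair and nails, where the summit lay 304 bp upstream. Its summit held 14 and 13 fragments, at ranks of 51.6 and 38.0, and its local background was the lowest of each library. The SCF libraries had the lowest backgrounds of the 4, and the part of depth in these missing calls was not tested. The second lay between HOXA11 and HOXA13, outside both bodies and 3278 bp downstream of the nearest HOXA13 start. Its summit held 12 and 14 fragments, at ranks of 17.3 and 16.2. The region called with SCF only lay at the 3′ side of HOXB13, 277 bp from the microRNA gene MIR3185 and inside PRAC2. Its summit held 9 and 10 fragments, at ranks of 19.4 and 27.7.

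By fold enrichment, no HOX region passed the rule for a rank change, in which the groups must be at least 10 points apart. This was 0 of 19 for a gain with SCF and 0 of 19 for a loss, against 2.55% and 3.04% of the 22398 regions called in all 4 libraries. Leaving out the second SCF library gave 2 gains and 3 losses. Leaving out either PBS library gave 1 of each, and leaving out the first SCF library gave 0 gains and 1 loss. The shares of all regions with a library left out were not computed. Both SCF ranks were above both PBS ranks in 3 of the 19, against 16% of all, and both PBS ranks were above both SCF ranks in 4 of the 19, against 19.3%. These shares are near those of all regions. By pileup rank the split was 1 of 19 up (13.6% of all regions) and 6 of 19 down (20.1% of all). By fold enrichment the 3 were the regions at HOXA6, HOXB6 and the internal HOXB2 start, and the 4 were those at HOXC4, between HOXA7 and HOXA9, in HOXD3 and 918 bp downstream of the nearest HOXB2 start. By pileup rank the 1 was that at HOXB6. The 6 were the same 4 and those at HOXB4 and 1966 bp upstream of the nearest HOXB2 start.

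**Figure D4:**
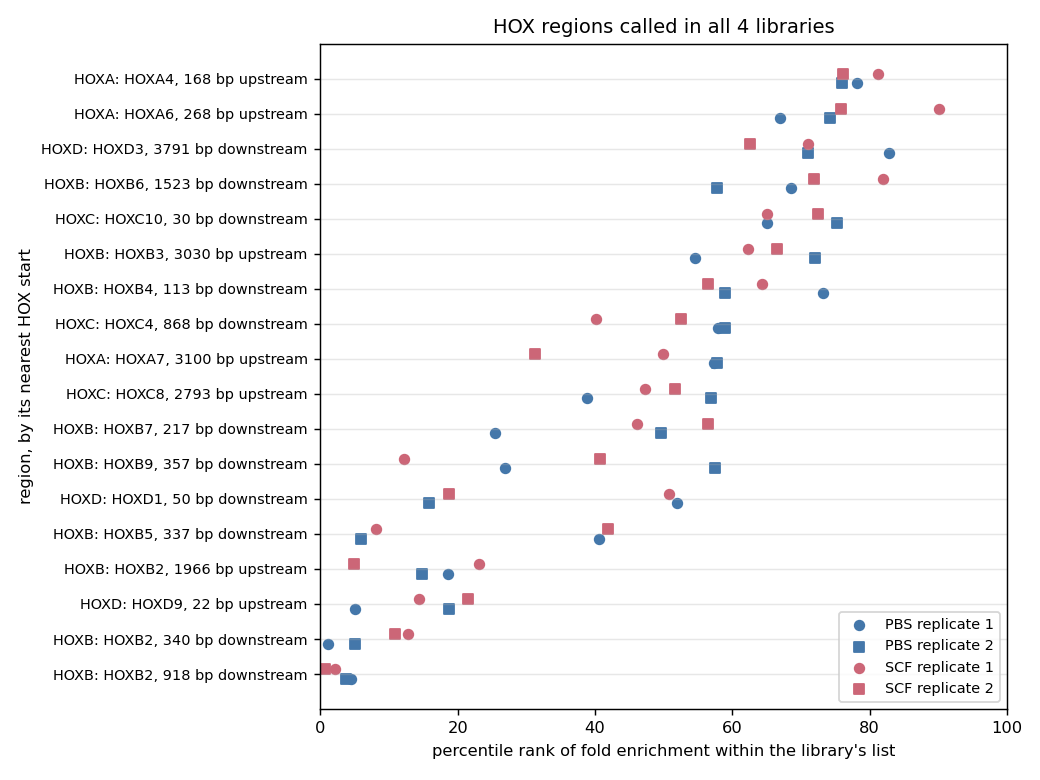
Percentile ranks of HOX regions called in all 4 libraries, for those reported by name. Each row is a region named by its nearest HOX start and ordered by mean rank, the horizontal axis is the percentile rank of fold enrichment, blue points are PBS and red points are SCF, with circles for replicate 1 and squares for replicate 2. Red lies to the right of blue at HOXA6, HOXB6 and the internal HOXB2 start and to the left at HOXC4, upstream of HOXA7, in HOXD3 and 918 bp downstream of the nearest HOXB2 start, and in most rows the colours interleave.

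In a limma fit across the 22398 regions, on log2 fold enrichment centred on the median of each library, 0 of the 19 HOX regions passed an adjusted p of 0.05, against 0% of all regions. At an unadjusted p under 0.05 there was 1 of 19, against 6.93% of all. That one was the internal HOXB2 start, whose log2 difference SCF minus PBS was 0.37 with a standard error of 0.16 (unadjusted p = 0.0490, limma adjusted p = 0.72). At HOXB6 the difference was 0.34 ± 0.19 (SE, limma adjusted p = 0.80), at HOXA6 0.30 ± 0.18 (limma adjusted p = 0.82), and between HOXA7 and HOXA9 it was −0.32 ± 0.19 (limma adjusted p = 0.81). At HOXA4 and HOXC10 it was 0.04 ± 0.16 and −0.02 ± 0.15, with adjusted p of 0.98 and 0.99 from limma. With 2 libraries per treatment, the absence of a call does not show that these regions were unchanged.

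The median rank of the 19 regions was 51.9 and 57.5 with PBS and 47.3 and 52.5 with SCF, a difference of −4.77 (p = 0.667, two-sided exact permutation test). The difference was −7.83 without the first PBS library, −2.00 without the second, −2.20 without the first SCF library and −8.36 without the second. All regions called in all 4 libraries had 62.7 and 66.3 with PBS and 61.6 and 65.9 with SCF. The 4 HOXA regions had medians of 62.2 and 66.0 with PBS and 65.6 and 67.2 with SCF, and the 9 HOXB regions had 26.9 and 49.6 with PBS and 23.1 and 42.0 with SCF. The 3 HOXC regions had 57.9 and 59.0 with PBS and 47.3 and 52.5 with SCF, which do not overlap, and the 3 HOXD regions had 51.9 and 18.8 with PBS and 50.7 and 21.5 with SCF. By pileup rank the HOXA medians were 59.6 and 62.9 with PBS and 56.8 and 55 with SCF. The HOXB medians on that scale were 49.5 and 54.8 with PBS and 50.8 and 54.2 with SCF. The direction of the difference in means thus turned with the measure in HOXA and HOXB, but not in HOXC and HOXD.

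Short words of factors that act in these cells or with HOX proteins were looked up in the reference. Within 100 bp of the summit, searched on both strands, the EGR word GCGTGGG was found at 3 of 40 HOX regions (7.5%) and at 3.80% of all regions, and the AP-1 word TGANTCA at 2 (5%) and 8.43%. The GATA word, AGATAA or TGATAA, was at 3 (7.5%) and 25.4%. The PBX-HOX word TGATNNAT was at 2 (5%) and 5.33%. The word for CTCF was in this window at 0 of 40 HOX regions and 2.33% of all. The retinoic acid response element word was also at 0 of 40, against 0.0436% of all. A match here is a string of letters and does not show binding.

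A match of each of 4 words is shown as an example of how a word lies against a measured peak, and other matches at named regions are not shown. Capitals mark the word, on the forward strand. Distances are to the summit of the library where the region ranked highest, and those of the other libraries can differ. The HOXA4 match lies 76 bp from the summit, the upstream HOXB2 match 38 bp, the match between HOXA11 and HOXA13 14 bp from the summit of the region called with PBS only, and the CTCF match between HOXA7 and HOXA9 108 bp.

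PBX-HOX at HOXA4, chr7:27170623-27170663: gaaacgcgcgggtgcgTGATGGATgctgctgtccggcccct
GATA upstream of HOXB2, chr17:46624455-46624495: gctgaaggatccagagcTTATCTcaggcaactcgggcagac
EGR between HOXA11 and HOXA13, chr7:27231935-27231975: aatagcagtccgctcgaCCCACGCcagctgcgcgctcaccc
CTCF between HOXA7 and HOXA9, chr7:27200743-27200783: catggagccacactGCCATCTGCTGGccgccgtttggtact

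Of these 4 matches, that of CTCF lies outside the window counted above. Within 250 bp of the summit it was the 1 CTCF match among the 40 HOX regions (2.5%, against 5.91% of all regions). In that wider window the GATA word was at 9 HOX regions (22.5%, against 41.4%), the EGR word at 6 (15%, against 8.87%), the AP-1 word at 4 (10%, against 17.9%) and the PBX-HOX word at 6 (15%, against 12.5%). The 3 HOX regions with an EGR word within 100 bp of the summit, 559 bp upstream of HOXA10, between HOXA11 and HOXA13, and 4304 bp upstream of HOXD13, were each called in 1 or 2 libraries.

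Genes known to act on or with HOX are read here against the 59.7% of all protein-coding genes with a start-site summit in all 4 libraries. All 15 of the Trithorax and MLL list (KMT2A, MEN1, DOT1L and others) and all 9 of the architecture list (CTCF, the cohesin subunits and YY1 among them) had a start-site summit in all 4 libraries. Of the Polycomb genes 17 of 20 did, PHF19 the highest (98.4 and 98.5 with PBS, 98.9 and 99.0 with SCF) and BMI1 the lowest (33.1 and 22.5 with PBS, 26.3 and 38.9 with SCF). Of the TALE cofactors, the homeodomain partners of HOX proteins, 6 of 9 did, a share near that of all genes. Among these MEIS1 ranked 28.6 and 23.4 with PBS and 15.5 and 19.2 with SCF. PBX2, RING1, PHF1 and RXRB, which had none, all lie in 4.98 Mb of chromosome 6 where the 4 lists together hold 6 summits among 184 protein-coding genes, and what the lists could show at starts in this stretch was not tested.

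Other lists were nearer to all genes. Of 12 further regulators, 7 had a start-site summit in all 4 libraries, and CDX1, CDX2 and CDX4, which switch on HOX genes in the embryo, had no start-site summit. Of 16 neighbours of the clusters, 10 did, HIBADH beside HOXA the highest (99.1 and 99.5 with PBS, 96.7 and 99.1 with SCF). EVX1 and EVX2, homeobox genes that flank HOXA and HOXD, had none. Of 23 non-coding genes of the clusters, 6 had a start-site summit in all 4 libraries, among them HOXA-AS3, HOXB-AS1, HOXB-AS3, HOXC-AS3 and HAGLR. The peak of each is also a HOX region. HOTAIR and MIR10B had none, and HOTTIP had one in 1 library at a rank of 0.84. The start regions of KMT2C, STAG2 and RARG met the rule for a rank loss with SCF, which 3.04% of all regions met, and no gene of the lists met that for a gain. Such single genes are no result about their lists.

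**Figure D5:**
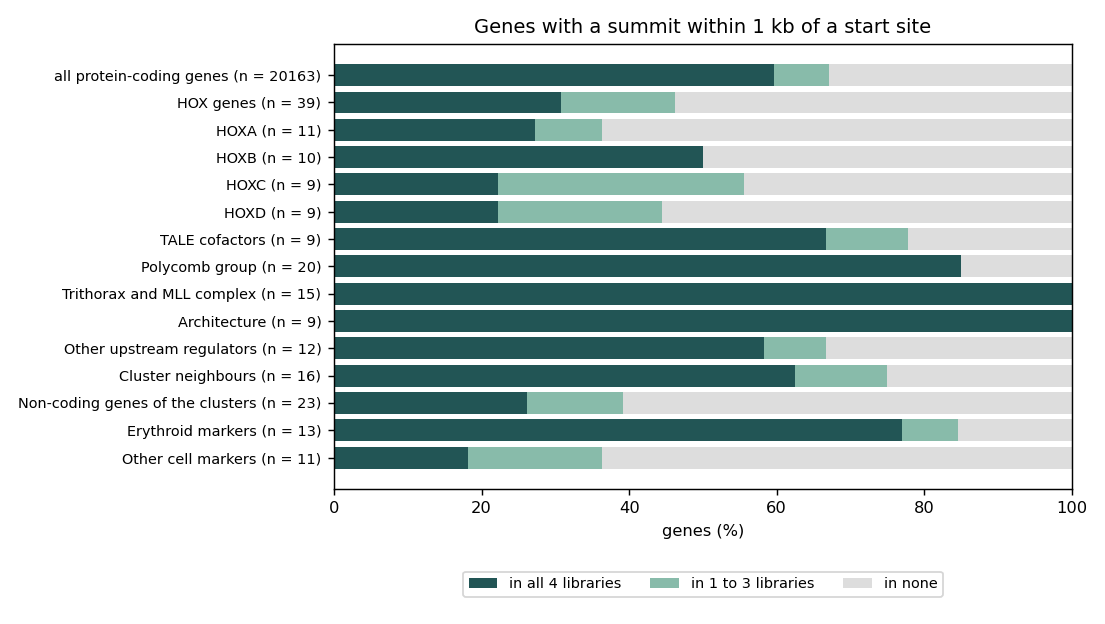
Percent of genes with a summit within 1 kb of a start site in all 4, in 1 to 3 or in no library (stacked bars, horizontal axis in %), for all protein-coding genes, the HOX genes, each cluster and the gene lists, with the number of genes in brackets. HOX genes reach 30.8% in all 4 libraries against 59.7% of all protein-coding genes, and the Trithorax and architecture lists fill the whole bar.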

How the data were processed

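Processed peak lists of 4 sgControl ATAC-seq libraries were used. Per the labels, reads were handled with bcl2fastq, Bowtie2 and SAMtools. The study's methods name the ENCODE ATAC-seq pipeline, and the peak caller's settings are not given in the sources used here. The labels name hg38, whereas the file headers and series description name hg19, and haplotype names in the lists are those of hg19. Coordinates were therefore read as hg19 (GRCh37), and no peak on the 24 chromosomes ran past the reference. Peak names inside the lists carry other replicate numbers than the labels, which were followed.

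As deposited by the authors, each peak has a score (not used in comparisons), a fold enrichment (a ratio of pileup to local background), and the −log10 of a p-value and of a q-value. A whole-number summit pileup and a background were recovered from the deposited fold enrichment and −log10 p, with a pseudocount of 1, for 100% of peaks with a −log10 p under 300 (relative error under 0.0001). Peaks sharing 1 bp were merged, and the highest-ranked peak of a library stood for a region. MAnorm, used by the study, needs reads and was not run.

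Tests were limma 3.58.1 on log2 fold enrichment across all regions called in all 4 libraries, with Benjamini-Hochberg adjustment, and exact permutation over libraries. P-values measure only the spread between these libraries. The fit was also run on simulated data with independent normal noise, which does not show what it can find in these data. The genes named were all HOX genes with a start-site summit, the leading region of each cluster, regions called in 1 treatment only or past the rank rule, and the highest or lowest of a list. Regions elsewhere in the clusters, MEIS1, the CDX and EVX genes, genes of the chromosome 6 stretch and genes past the rank rule were named after their values were seen. The members and gene lists were chosen with earlier results of these data known. Sequences came from GRCh37. Alternatives were a stricter q, equal list lengths, other windows, other region definitions, other rank measures and fits, and leaving out each library. Some items are not reported here.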

Additional observations from a re-analysis of the deposited data

How the results depend on the processing

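With peaks of −log10 q of at least 5, SCF-only regions were 0, PBS-only regions 1 and rank losses 1, the difference in the median rank turned to 0.52 points, and that in HOXA summits to 0.5. With equal numbers of peaks, the start-site genes turned to a difference of 1 and HOXD summits to 1. With a 2 kb window, PBS-only regions were 1. A gap of 5 points gave 1 gain and 2 losses, and ranks by pileup gave 1 loss, the region between HOXA7 and HOXA9. Leaving out 1 library at a time gave 1 to 4 SCF-only regions and 2 to 7 PBS-only regions. It gave 0 to 2 rank gains, 1 to 3 rank losses, differences of −5 to −3 in summits, −3 to −1 in start-site genes and −8.36 to −2.00 in the median rank, and 0 HOX regions past the limma threshold. For the counts by treatment and by rank change, the shares of all regions in these settings were not computed. Deviations of the libraries labelled 1 from the means of their treatments correlated with r = 0.0121 over 22398 regions. This single value cannot show whether libraries of the same number shared a preparation, which the labels do not say. With the replicate block, 0 HOX regions passed and the lowest limma adjusted p was 0.718, within a range of 0.651 to 0.785 over all fits tried. The cause of these shifts was not tested. The lowest pileup at a HOX summit was 7 fragments, and the part of depth was not tested. Of the alternatives computed, 4 turned a direction and 20 moved a count by over 1.5 times. The other 62 turned no direction and crossed no threshold, although some differed in size, such as a difference in HOX summits of −0.5 with equal numbers of peaks. Some differences vanished. That in HOXB summits went from −0.5 to 0 with equal numbers of peaks. That in HOXD summits went from −0.5 to 0 with peaks of −log10 q of at least 5. With at most 2 libraries per treatment, the exact permutation test cannot pass the threshold. For its results, keeping the side of the threshold was therefore fixed in advance.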
